A study of Mus musculus with 6 samples.

Results

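Laminins and nidogens are the glycoproteins on which basement membranes are built. The 10 genes described here, Lama1, Lama2, Lama4, Lama5, Lamb1, Lamb2, Lamc1, Lamc3, Nid1 and Nid2, were taken by name from the 32285 features of the deposited count matrices, and all 10 identifiers were present. Their RNA was counted in single nuclei from cortical lesions of mice, where photothrombosis (PT) had closed cortical vessels with light and a dye. The 6 droplet libraries were wild-type mice not given ADWA11 (Ctrl), mice of genotype Col1a2(creER); Tgfbr2(flox) not given ADWA11 (Tgfbr2-cKO) and wild-type mice given ADWA11, each at 7 and 21 days post injury (dpi). All mice carried the injury, and per the study's methods mice were adults of both sexes. The Cre is driven by Col1a2 and induced by tamoxifen, so it acts in cells that use Col1a2, and it removes the type II receptor for TGFβ. Per the study's methods tamoxifen was injected to induce it, and controls of its conditional knockouts also received tamoxifen where relevant, with no statement specific to the wild-type mice of these libraries. ADWA11 is an antibody that blocks the integrin αvβ8, which activates latent TGFβ, and dosing began on the day of the lesion. A library held nuclei of 2 mice, 1 of each sex, and a group was 1 library, so no difference below was tested across mice.

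A laminin is a cross-shaped trimer of 1 α, 1 β and 1 γ chain. The α chain carries the domains that bind integrins and dystroglycan, and the short arms polymerise into a sheet. Nidogens bridge the laminin sheet to collagen IV and perlecan. In the brain, endothelial cells, mural cells, astrocytes and leptomeningeal fibroblasts each contribute chains to the membranes around vessels and under the pia, and the α chain made differs between these cell types.

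The promoters of 3 members are shown because these genes had unlike patterns: Lama2 held its level over all fibroblasts through time and treatment, Lamb1 had the widest gap between 7 and 21 dpi there in Ctrl, and Lama5 was nearly absent from fibroblasts but present in endothelial nuclei. Each is the RefSeq window of 250 bases before and 50 bases after the gene's start on GRCm38.p6, written 5′ to 3′ on the gene's strand. Capitals mark matches, on either strand, to CAGAC (a short letter run found in SMAD binding sites) and to GGGCGG (the GC box).
Lama2 (chr10:27616893-27617192, minus strand): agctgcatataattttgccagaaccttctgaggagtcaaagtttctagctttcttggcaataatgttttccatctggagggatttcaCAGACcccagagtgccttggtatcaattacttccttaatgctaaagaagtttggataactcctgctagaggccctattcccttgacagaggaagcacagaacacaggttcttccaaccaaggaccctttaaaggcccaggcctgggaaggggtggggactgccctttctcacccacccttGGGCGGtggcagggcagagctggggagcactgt
Lamb1 (chr12:31265043-31265342, plus strand): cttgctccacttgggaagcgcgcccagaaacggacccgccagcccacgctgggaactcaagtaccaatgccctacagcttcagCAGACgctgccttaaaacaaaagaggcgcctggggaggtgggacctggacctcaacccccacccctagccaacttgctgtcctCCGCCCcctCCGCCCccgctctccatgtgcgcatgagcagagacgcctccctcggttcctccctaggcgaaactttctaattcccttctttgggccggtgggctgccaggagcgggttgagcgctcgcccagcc
Lama5 (chr2:180225810-180226109, minus strand): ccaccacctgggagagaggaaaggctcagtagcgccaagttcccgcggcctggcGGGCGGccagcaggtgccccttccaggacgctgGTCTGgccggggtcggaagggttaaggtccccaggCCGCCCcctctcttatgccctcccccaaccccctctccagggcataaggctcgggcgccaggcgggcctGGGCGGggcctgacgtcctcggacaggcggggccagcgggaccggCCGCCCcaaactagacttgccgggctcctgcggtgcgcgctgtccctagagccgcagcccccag
The window of Lama2 held 1 match to CAGAC and 1 to GGGCGG, that of Lamb1 held 1 and 2, and that of Lama5 held 1 and 4. Over 32851 windows of this length, 49.6% held CAGAC and 35.7% held GGGCGG. A match here describes the letters only. None of the 3 windows held TGANTCA, the AP-1 type motif, which 7.81% of all windows held. Their GC content was 50.3% (Lama2), 63.7% (Lamb1) and 72.7% (Lama5). Windows were found for 5 of the 10 members.

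The libraries held 9004 to 14246 barcodes and 64798965 to 140310354 unique molecular identifiers (UMIs, counted RNA molecules), and 61906 of 67360 barcodes were kept as nuclei. Pairs of libraries shared 21 to 61 barcodes. Classes were rebuilt from marker genes, and the names below mean nuclei with the markers of that class. The Tgfbr2-cKO library at 7 dpi stood apart, with 5999 neuronal nuclei and 479 fibroblasts, against 29 to 876 and 1183 to 6880 in the other 5 libraries. Tgfbr2 in fibroblasts was 329.8 (Ctrl), 238 (Tgfbr2-cKO) and 252 CPM (ADWA11) at 7 dpi and 233, 189 and 203 CPM at 21 dpi, where CPM is UMIs per 1000000 non-mitochondrial UMIs of the class. The counts are 3′ and intronic reads of the whole gene, so this level does not check the deletion of an exon. The 7 fibroblast markers summed to 7767, 3898 and 5898 CPM in fibroblasts at 7 dpi and to 6403, 1769.7 and 5183 CPM at 21 dpi, lowest in Tgfbr2-cKO at both times. The 8 endothelial markers summed to 134 to 198 CPM there, against 8632 to 12608 CPM in endothelial nuclei. The 7 astrocyte markers, some of which fibroblasts also use, summed to 759 to 1512 CPM in fibroblasts, with the highest values in Tgfbr2-cKO.

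In fibroblasts, Lama1 and Lamc3 were the members that differed most between conditions. At 21 dpi they did so in opposite directions in the 2 ways of blocking TGFβ, while at 7 dpi Lamc3 with ADWA11 was near Ctrl. Some sub-clusters of fibroblasts, described below, went another way, and sub-cluster shares differed between libraries. At 21 dpi both were higher in Tgfbr2-cKO than in Ctrl and both were lower with ADWA11. Between 7 and 21 dpi in Ctrl, 8 of the 9 members with enough UMIs had lower levels at 21 dpi, where the median log2 ratio of all features was 0.04. Lamb1, Lamc3, Nid2 and Lama1 were lower by more than 2-fold, where 10.7% of all features passed 2-fold in either direction. Lama2, the α chain of muscle and pial laminin, differed little over all fibroblasts in any comparison. A ratio below is the log2 of a ratio of CPM, its bracket is an exact 95% interval that covers counting error only, and a member was called where the ratio passed 2-fold in size. All features with a mean of at least 5 CPM in the class were treated alike to give the background.

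**Figure D1:**
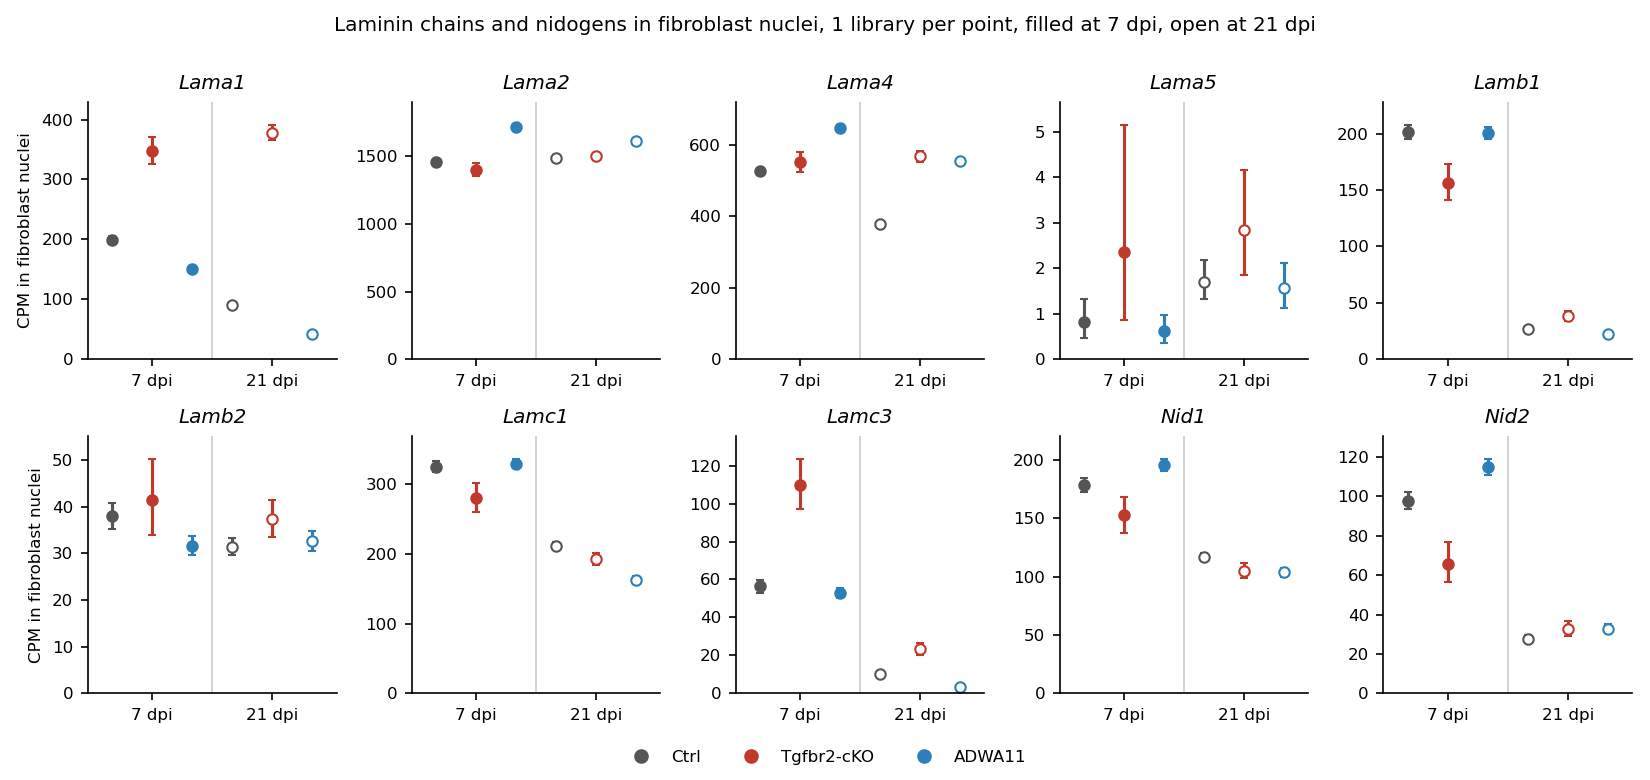
Level of each of the 10 members in fibroblast nuclei in CPM (y axis, from 0) in each of the 6 libraries (x axis), with filled points at 7 dpi and open points at 21 dpi, in grey for Ctrl, red for Tgfbr2-cKO and blue for ADWA11. Bars are exact Poisson 95% intervals. Lama1 stands highest in the Tgfbr2-cKO libraries (348 and 378 CPM), Lamb1, Lamc3 and Nid2 are lower at 21 dpi in every condition, and Lama2 stays between 1401 and 1717 CPM.

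Lama1 (ENSMUSG00000032796, chr17:67697259-67822647, plus strand) encodes the α1 chain, an embryonic chain that adult brain keeps in pial membranes. Gene positions here are those of the GENCODE annotation on GRCm38, whose starts can differ from those of RefSeq. In fibroblasts it measured 199.7 (Ctrl), 348 (Tgfbr2-cKO) and 149.8 CPM (ADWA11) at 7 dpi, and 91.0, 378 and 42.6 CPM at 21 dpi. Both Tgfbr2-cKO libraries were above the other 4, and the ADWA11 library was the lowest of its day at both times. Against Ctrl, Tgfbr2-cKO was higher by 0.80 [0.69, 0.91] at 7 dpi and by 2.06 [1.99, 2.12] at 21 dpi on the log2 scale. With ADWA11 the ratio was −0.41 [−0.48, −0.35] at 7 dpi and −1.10 [−1.19, −0.9997] at 21 dpi. Ctrl itself was lower at 21 than at 7 dpi (−1.13 [−1.20, −1.07]), the Tgfbr2-cKO pair differed by 0.12, and the ADWA11 pair by −1.82. These comparisons share the Ctrl libraries. The ratio in Tgfbr2-cKO at 21 dpi ran from 1.67 to 2.67 over 11 alternatives, and it was largest without a sub-cluster of fibroblasts that came almost wholly from that library.

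Lama2 (ENSMUSG00000019899, chr10:26980036-27619758, minus strand) encodes the α2 chain that binds dystroglycan, and its loss causes a congenital muscular dystrophy with white matter changes. Its fibroblast levels were 1458, 1401 and 1717 CPM at 7 dpi and 1486, 1499.7 and 1617 CPM at 21 dpi, for Ctrl, Tgfbr2-cKO and ADWA11 in turn. The ADWA11 library was the highest at each time, by 0.24 [0.21, 0.26] and 0.12 [0.10, 0.14] over Ctrl. Both Tgfbr2-cKO ratios were near 0 (−0.06 [−0.11, −0.01] and 0.01 [−0.01, 0.04]), and their sign turned under some alternatives.

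Lama4 (ENSMUSG00000019846, chr10:38965515-39110188, plus strand) encodes α4, the chain of endothelial and mesenchymal laminin-411. It measured 526, 551 and 646 CPM in fibroblasts at 7 dpi and 379.8, 568 and 555 CPM at 21 dpi. Ctrl was the lowest library at each time. At 21 dpi the ratio was 0.58 [0.53, 0.63] in Tgfbr2-cKO and 0.55 [0.51, 0.58] with ADWA11, both under 2-fold. The Tgfbr2-cKO value was 0.15 without the sub-cluster of 1 library, while the ADWA11 value kept between 0.45 and 0.61 over the alternatives.

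Lama5 (ENSMUSG00000015647, chr2:180176373-180225859, minus strand) encodes α5, the main chain of mature endothelial laminin-511. Its fibroblast levels were 0.613 to 2.84 CPM in the 6 libraries, too low for the filter, and the ratio in Tgfbr2-cKO at 7 dpi rested on 6 against 16 UMIs (1.54 [−0.11, 2.96]). No direction could be read for it in fibroblasts at this depth.

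Lamb1 (ENSMUSG00000002900, chr12:31265234-31329644, plus strand) encodes the β1 chain of laminin-111, laminin-411 and laminin-511. It measured 201 (Ctrl), 157 (Tgfbr2-cKO) and 200.4 CPM (ADWA11) at 7 dpi and 26.5, 38.2 and 22.0 CPM at 21 dpi, so the levels of the 2 days did not overlap. The gap between days was −2.93 [−3.03, −2.83] in Ctrl, −2.03 in Tgfbr2-cKO and −3.18 with ADWA11. In Tgfbr2-cKO it was below Ctrl at 7 dpi (−0.36 [−0.51, −0.21]) and above it at 21 dpi (0.53 [0.35, 0.71]), and the latter value was 0.10 without the sub-cluster of 1 library. With ADWA11 it was level with Ctrl at 7 dpi and at −0.26 [−0.41, −0.12] at 21 dpi.

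Lamb2 (ENSMUSG00000052911, chr9:108479736-108490530, plus strand) encodes β2, the chain of synaptic and arterial basement membranes. It kept between 31.4 and 41.4 CPM in fibroblasts over all 6 libraries, and no ratio passed 2-fold. Its largest ratios in size were −0.27 [−0.40, −0.14] between 7 and 21 dpi in Ctrl and −0.26 [−0.40, −0.12] with ADWA11 at 7 dpi.

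Lamc1 (ENSMUSG00000026478, chr1:153218922-153332786, minus strand) encodes γ1, the γ chain of most laminins. Its fibroblast levels were 324, 280.1 and 328 CPM at 7 dpi and 212, 192 and 162 CPM at 21 dpi. All 3 libraries at 21 dpi were below all 3 at 7 dpi, by −0.62 [−0.66, −0.57] in Ctrl, −0.54 in Tgfbr2-cKO and −1.02 with ADWA11. At 21 dpi both blocked conditions were below Ctrl, by −0.14 [−0.21, −0.06] in Tgfbr2-cKO and −0.38 [−0.44, −0.33] with ADWA11.

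Lamc3 (ENSMUSG00000026840, chr2:31887291-31946539, plus strand) encodes γ3, a rarer chain whose loss disturbs the pial surface and cortical layering. It measured 56.4 (Ctrl), 109.7 (Tgfbr2-cKO) and 53.0 CPM (ADWA11) at 7 dpi and 10.2, 23.2 and 3.64 CPM at 21 dpi. Tgfbr2-cKO was the highest library of each day. Its ratio to Ctrl was 0.96 [0.76, 1.15] at 7 dpi and 1.18 [0.93, 1.42] at 21 dpi, and over the alternatives these ran from 0.70 to 1.09 and from 0.96 to 2.02. With ADWA11 the ratio was −0.09 [−0.20, 0.02] at 7 dpi and −1.49 [−1.82, −1.17] at 21 dpi. The gap between days was −2.47 [−2.63, −2.30] in Ctrl, −2.24 in Tgfbr2-cKO and −3.86 with ADWA11.

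Nid1 (ENSMUSG00000005397, chr13:13437551-13512269, plus strand) and Nid2 (ENSMUSG00000021806, chr14:19751265-19811787, plus strand) encode the 2 nidogens. Nid1 measured 179, 153 and 196 CPM at 7 dpi and 117, 105 and 104 CPM at 21 dpi. Nid2 measured 97.8, 65.9 and 115 CPM at 7 dpi and 27.7, 32.8 and 32.9 CPM at 21 dpi. For both genes every library at 21 dpi was below every library at 7 dpi, but by mouse the days overlapped for Nid1, at 123 CPM in male nuclei of Tgfbr2-cKO at 7 dpi and 124 CPM in those of Ctrl at 21 dpi. The gap in Ctrl was −0.61 [−0.67, −0.55] for Nid1 and −1.82 [−1.93, −1.71] for Nid2. In Tgfbr2-cKO, Nid2 was below Ctrl at 7 dpi (−0.57 [−0.81, −0.34]) and above it at 21 dpi (0.24 [0.05, 0.43]), but the value at 21 dpi was −0.17 among female nuclei and −0.12 with the mean of CPM per nucleus. With ADWA11, Nid2 was higher by 0.23 [0.15, 0.31] and 0.24 [0.11, 0.37] at the 2 times.

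Of the 9 members tested in fibroblasts, 2 passed 2-fold in Tgfbr2-cKO against Ctrl at 21 dpi, Lama1 and Lamc3, both higher, where 10.0% of all features passed. With ADWA11 at 21 dpi the same 2 genes passed, both lower, where 4.10% of all features did. At 7 dpi none of the 9 passed in Tgfbr2-cKO (9.31% of features) or with ADWA11 (4.97%). In Ctrl at 21 against 7 dpi, 4 passed, Lama1, Lamb1, Lamc3 and Nid2, all lower, against 10.7% of features, of which 825 were higher and 454 lower. The median ratio of the 9 members was −0.62 in that comparison, and that of all features was 0.04. Against Ctrl the members' median was −0.06 at 7 and 0.25 at 21 dpi in Tgfbr2-cKO, and 0.02 and −0.17 with ADWA11, and that of all features lay between −0.01 and 0.09. TMM scaling (a trimmed mean that sets the bulk of genes level) lowered all fibroblast ratios in Tgfbr2-cKO at 7 dpi by 0.19, which turned the sign of Lama4 and Lamb2 there, and shifted the other 4 comparisons by less than 0.1.

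**Figure D2:**
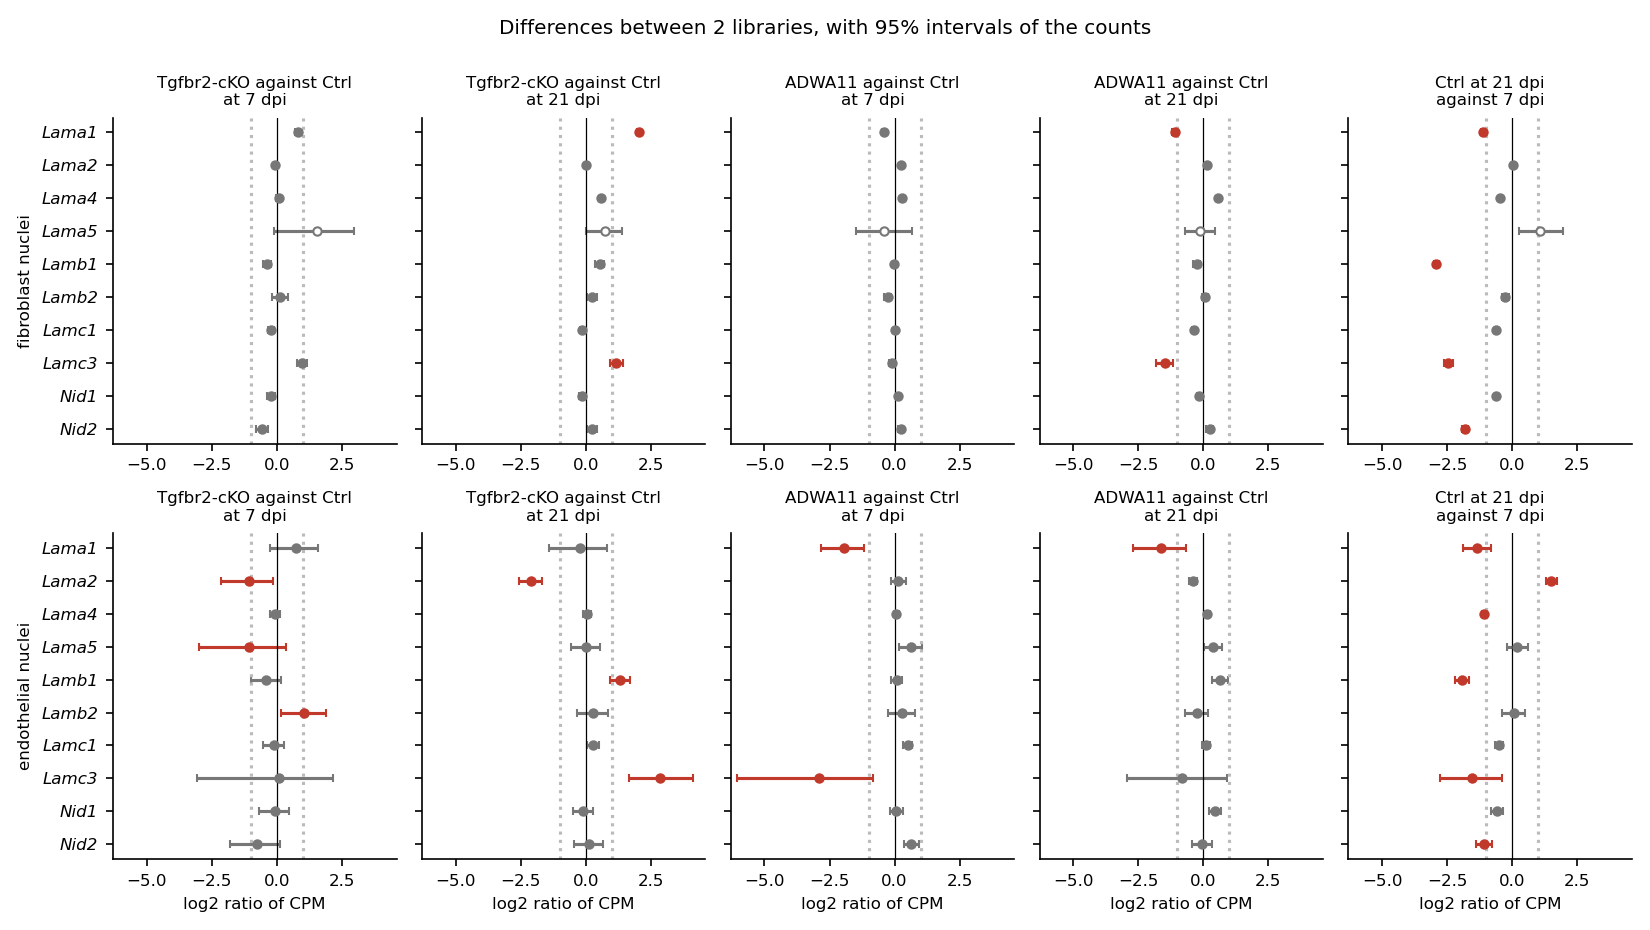
Log2 ratio of CPM (x axis) of each member (y axis) in the 5 comparisons (columns), in fibroblasts (top) and endothelial nuclei (bottom). Bars are exact 95% counting intervals, dotted lines mark 2-fold, red marks members past it and open grey marks Lama5 in fibroblasts, which was under 5 CPM. Lama1 lies at 2.06 in Tgfbr2-cKO fibroblasts and −1.10 with ADWA11 at 21 dpi, and Lamb1 at −2.93 between days in Ctrl.

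The fibroblasts were split into 9 sub-clusters with the members left out of the genes used for clustering. A named state had markers of that state, namely arachnoid-like (sub-cluster 3), late inner-like (4) and proliferating-like (8), and the other 6 stayed unnamed. Sub-cluster 2, led by Spock3, Has2 and Eln, had 5 raised myofibroblast markers (Cthrc1, Acta2, Postn, Fn1 and Tagln), but its 10 leading genes held none of them and held Vcan, listed here as a precursor marker, so it goes by its number. With log-normalised clustering and with members kept in clustering, the cluster led by Spock3 was named myofibroblast. Sub-cluster 5, led by Gm30613, Col4a6, Wnt4, Col13a1, Lamc3 and Kl, had the highest level of 8 of the 10 members over the 42 combinations of sub-cluster and library with at least 20 nuclei. The share of all features highest there is not given, so this count is not read as a trait of the members. The other 2 members were Lama5, highest in the low-UMI sub-cluster 6, and Lamb2, highest in sub-cluster 8. Sub-cluster 5 made up 18.3, 23.8 and 13.2% of fibroblasts (Ctrl, Tgfbr2-cKO, ADWA11) at 7 dpi and 3.15, 6.59 and 3.20% at 21 dpi. Sub-cluster 1 had leukocyte genes, sub-cluster 6 had neural genes, and 41.3% and 35% of their nuclei were called doublets. Sub-cluster 7, with 313 of its 330 nuclei in Tgfbr2-cKO at 21 dpi, was led by Gabrg3 and Ebf3. Its raised markers included neuronal (Snap25, Syt1, Slc17a7, Grin2b), mural (Rgs5, Abcc9, Notch3) and astrocyte ones (Aldh1l1, Slc1a2), besides Cxcl12 and Cdh18 of fibroblast states. Of its nuclei 1.2% were called doublets.

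In sub-cluster 5 Lama1 measured 929.7, 1077 and 769 CPM at 7 dpi and 1336, 1831 and 718 CPM at 21 dpi. It was not lower at 21 dpi in Ctrl there (0.52 [0.44, 0.61]), and the sub-cluster's own share of fibroblasts was smaller. In arachnoid-like nuclei Lama1 was 261, 427 and 121 CPM at 7 dpi and 267, 682 and 162 CPM at 21 dpi, with a gap between days in Ctrl of 0.04 [−0.18, 0.25]. Sub-cluster 2 had 25.8, 25.0 and 17.5 CPM at 7 dpi. Arachnoid-like nuclei were 119 of 2479 fibroblasts in Ctrl at 7 dpi and 645 of 6880 at 21 dpi. Neither of the 2 sub-clusters with most Lama1 had a lower level in Ctrl at 21 dpi. Lama1 was lower there in sub-cluster 1 (−0.51 [−0.78, −0.23]) and in late inner-like nuclei (−1.15 [−1.78, −0.49]). In proliferating-like nuclei it went from 35 UMIs to 0, where a floor of 3 UMIs a library puts the ratio at −1.79 or below. The part of sub-cluster shares in the lower level over all fibroblasts was not tested.

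The gap of Tgfbr2-cKO at 21 dpi was 0.45 [0.34, 0.57] within sub-cluster 5 and 1.35 [1.25, 1.46] within arachnoid-like nuclei, both under the 2.06 over all fibroblasts. It was above that in sub-cluster 1, which had leukocyte genes, at 2.84 [2.58, 3.10] (41.5 CPM in Ctrl and 297 CPM in Tgfbr2-cKO). It was at 1.14 [0.71, 1.56] in sub-cluster 6 and at −2.30 [−4.19, −0.93] in sub-cluster 0, where Tgfbr2-cKO had 4 UMIs. Arachnoid-like nuclei were 34.3% of fibroblasts in that library, against 9.38% in Ctrl, and held 62.1% of its fibroblast Lama1 UMIs, against 30.6%. With ADWA11 at 21 dpi the ratio of Lama1 was below 0 in both, at −0.90 [−1.04, −0.75] and −0.72 [−0.89, −0.55]. It was lower still in sub-cluster 0, led by Slc47a2 and Slc47a1, where Lama1 was 23.0 CPM in Ctrl and 4.59 CPM with ADWA11 (−2.33 [−2.69, −1.98]). Sub-cluster 6 had 0 UMIs with ADWA11 and 108 in Ctrl, which the floor of 3 UMIs puts at −2.75 or below. Sub-cluster 0 made up 64.3% of fibroblasts with ADWA11 at 21 dpi and 28.6% in Ctrl. At 7 dpi ADWA11 gave −1.10 [−1.33, −0.87] in arachnoid-like nuclei, −0.57 [−0.84, −0.29] in sub-cluster 2 and −0.27 [−0.35, −0.20] in sub-cluster 5, but 0.88 [0.62, 1.14] in sub-cluster 1 and 0.43 [−0.12, 1.01] in sub-cluster 8. In sub-cluster 6 it was −1.95 [−3.72, −0.48], on 5 against 19 UMIs.

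Lamc3 was likewise concentrated in sub-cluster 5, with 241, 317 and 227 CPM at 7 dpi and 138, 212 and 81.3 CPM at 21 dpi, which was 42.8 to 75.5% of all fibroblast Lamc3 UMIs of a library. Within it the gap between days in Ctrl was −0.80 [−1.05, −0.56], smaller than over all fibroblasts. That gap was −2.25 [−2.76, −1.74] in arachnoid-like nuclei, −1.43 [−2.09, −0.78] in sub-cluster 1 and 0.05 [−1.74, 2.46] in sub-cluster 6. In sub-cluster 5 the ratio of Lamc3 at 21 dpi was 0.62 [0.26, 0.97] in Tgfbr2-cKO and −0.77 [−1.22, −0.33] with ADWA11. In sub-cluster 2 at 7 dpi Lamc3 was 17.3 CPM in Ctrl and 35.5 CPM in Tgfbr2-cKO (1.03 [0.45, 1.57]). The ADWA11 ratio at 7 dpi was above 1 in sub-cluster 1 (15.3 CPM in Ctrl and 35.3 CPM with ADWA11) and −0.85 [−1.25, −0.43] in arachnoid-like nuclei.

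Lama2, near level over all fibroblasts, was less so within sub-clusters. In sub-cluster 5 it measured 2003, 1887 and 1965 CPM at 7 dpi and 1759, 3058 and 2303 CPM at 21 dpi, with Tgfbr2-cKO above Ctrl by 0.80 [0.70, 0.89] at 21 dpi. In sub-cluster 6 at 7 dpi the ratio was −0.97 [−1.35, −0.59] in Tgfbr2-cKO and 0.79 [0.52, 1.06] with ADWA11. In arachnoid-like nuclei the ADWA11 ratio changed sign, from 0.56 [0.47, 0.66] at 7 dpi to −0.14 [−0.21, −0.08] at 21 dpi, and between the days in Ctrl it was 0.68 [0.61, 0.75] in late inner-like nuclei.

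Lamb1 was lower at 21 dpi within sub-clusters 1 to 6 and 8, and not only over all fibroblasts. Its level in Ctrl was 184 and 29.1 CPM at 7 and 21 dpi in arachnoid-like nuclei (−2.66 [−3.02, −2.31]) and 171 and 21.8 CPM in late inner-like nuclei (−2.97 [−3.24, −2.71]). The gap was narrower in sub-cluster 5, where Lamb1 went from 299.9 to 183 CPM (−0.72 [−0.93, −0.51]), and in sub-cluster 2, where it was 210.1 and 115 CPM (−0.87 [−1.18, −0.58]). Sub-cluster 0 was the exception, with 6.96 CPM in 50 nuclei at 7 dpi and 14.4 CPM at 21 dpi (1.05 [−0.51, 3.34]). In Tgfbr2-cKO at 21 dpi, where Lamb1 was above Ctrl over all fibroblasts, it was at −0.53 [−0.95, −0.12] in sub-cluster 5 and −0.25 [−0.69, 0.17] in arachnoid-like nuclei. Nid2 also had lower levels at 21 dpi within sub-clusters 1 to 5, by −1.15 in sub-cluster 1, −2.28 in arachnoid-like nuclei, −1.43 in sub-cluster 5, −1.12 in sub-cluster 2 and −0.89 in late inner-like nuclei, but was at 0.32 [−0.46, 1.21] in sub-cluster 6 and 0.07 [−1.20, 1.18] in sub-cluster 8.

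Lama4 with ADWA11 was above Ctrl within some states as well, by 0.65 [0.61, 0.70] in sub-cluster 0 and 0.80 [0.66, 0.94] in sub-cluster 5 at 21 dpi, and by 0.47 in sub-cluster 5 and 0.46 in sub-cluster 2 at 7 dpi. In arachnoid-like nuclei at 21 dpi it was at 0.06 [−0.06, 0.18], and in late inner-like nuclei at 7 dpi at −0.17 [−0.32, −0.02]. In Tgfbr2-cKO at 21 dpi Lama4 was at 0.38 [0.28, 0.49] in arachnoid-like nuclei and −0.33 [−0.54, −0.13] in sub-cluster 5. Sub-cluster 7 had 835 CPM of Lama4 and 56.3 CPM of Lamb1 in Tgfbr2-cKO at 21 dpi but 13.5 CPM of Lama1.

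**Figure D3:**
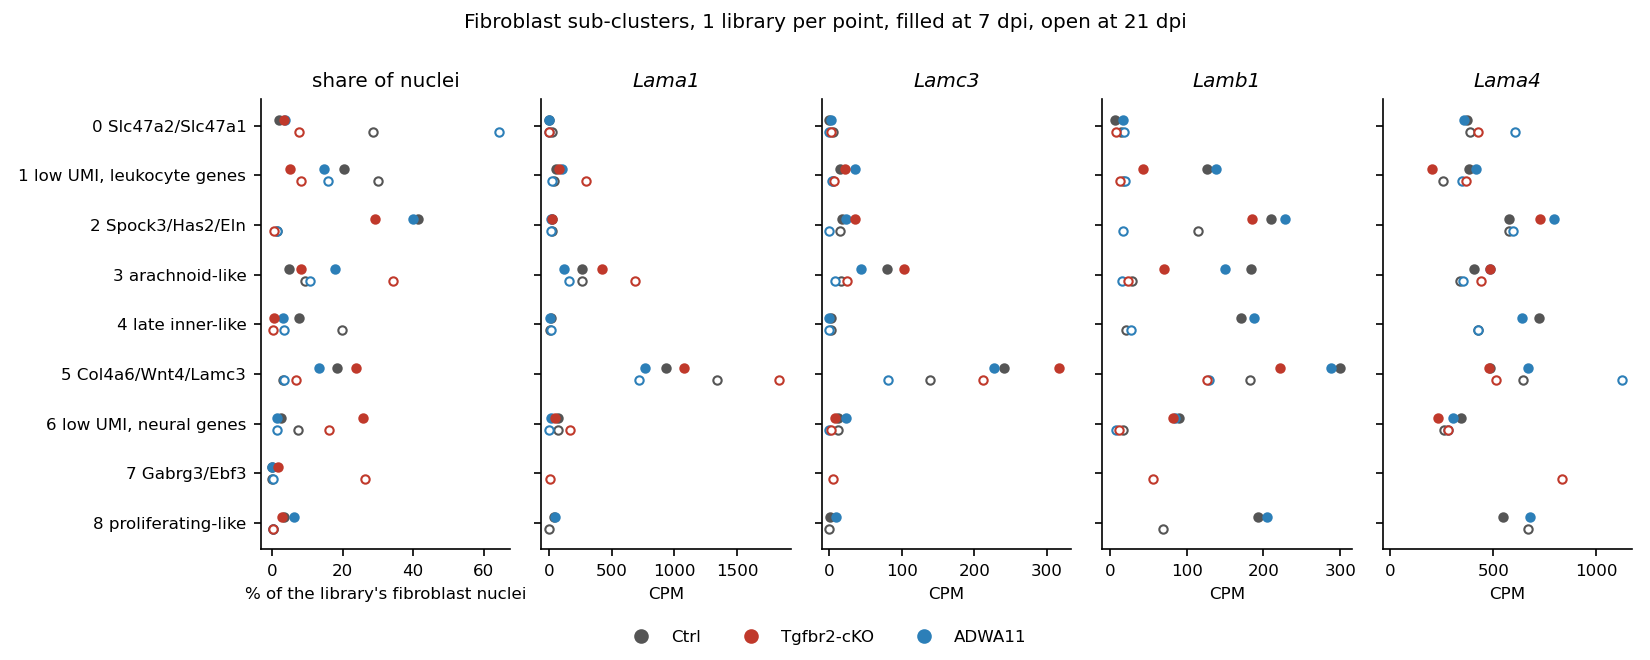
Share of fibroblast nuclei in percent (first panel) and CPM of Lama1, Lamc3, Lamb1 and Lama4 (other panels) (x axes) by fibroblast sub-cluster (y axis), with 1 point per library, filled at 7 dpi and open at 21 dpi, in grey for Ctrl, red for Tgfbr2-cKO and blue for ADWA11. Lama1 reaches 718 to 1831 CPM in sub-cluster 5 and 121 to 682 CPM in the arachnoid-like sub-cluster 3.

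Among the 6 classes of interest (fibroblast, endothelial, mural, astrocyte, oligodendrocyte precursor and oligodendrocyte), Lama1 was highest in fibroblasts in each of the 6 libraries. Lama5 was at 20.3 to 65.2 CPM in endothelial nuclei, 14.8 to 99.4 CPM in mural nuclei and 14.0 to 22.9 CPM in astrocytes, and at 0.613 to 2.84 CPM in fibroblasts and 0 to 1.53 CPM in oligodendrocyte precursors. Lamc3 was higher in mural nuclei (57.8 to 276 CPM) than in fibroblasts in each library. Lamc1 had UMIs in every class, with 72.4 to 144 CPM in T cells and 37.1 to 86.6 CPM in myeloid nuclei, which is below the 162 to 328 CPM of fibroblasts and the 372 to 745 CPM of mural nuclei. Lama2 had 5.2 to 34.4 CPM in myeloid nuclei and 13.0 to 87.1 CPM in T cells. Whether these UMIs came from the myeloid nuclei and T cells themselves was not tested.

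**Figure D4:**
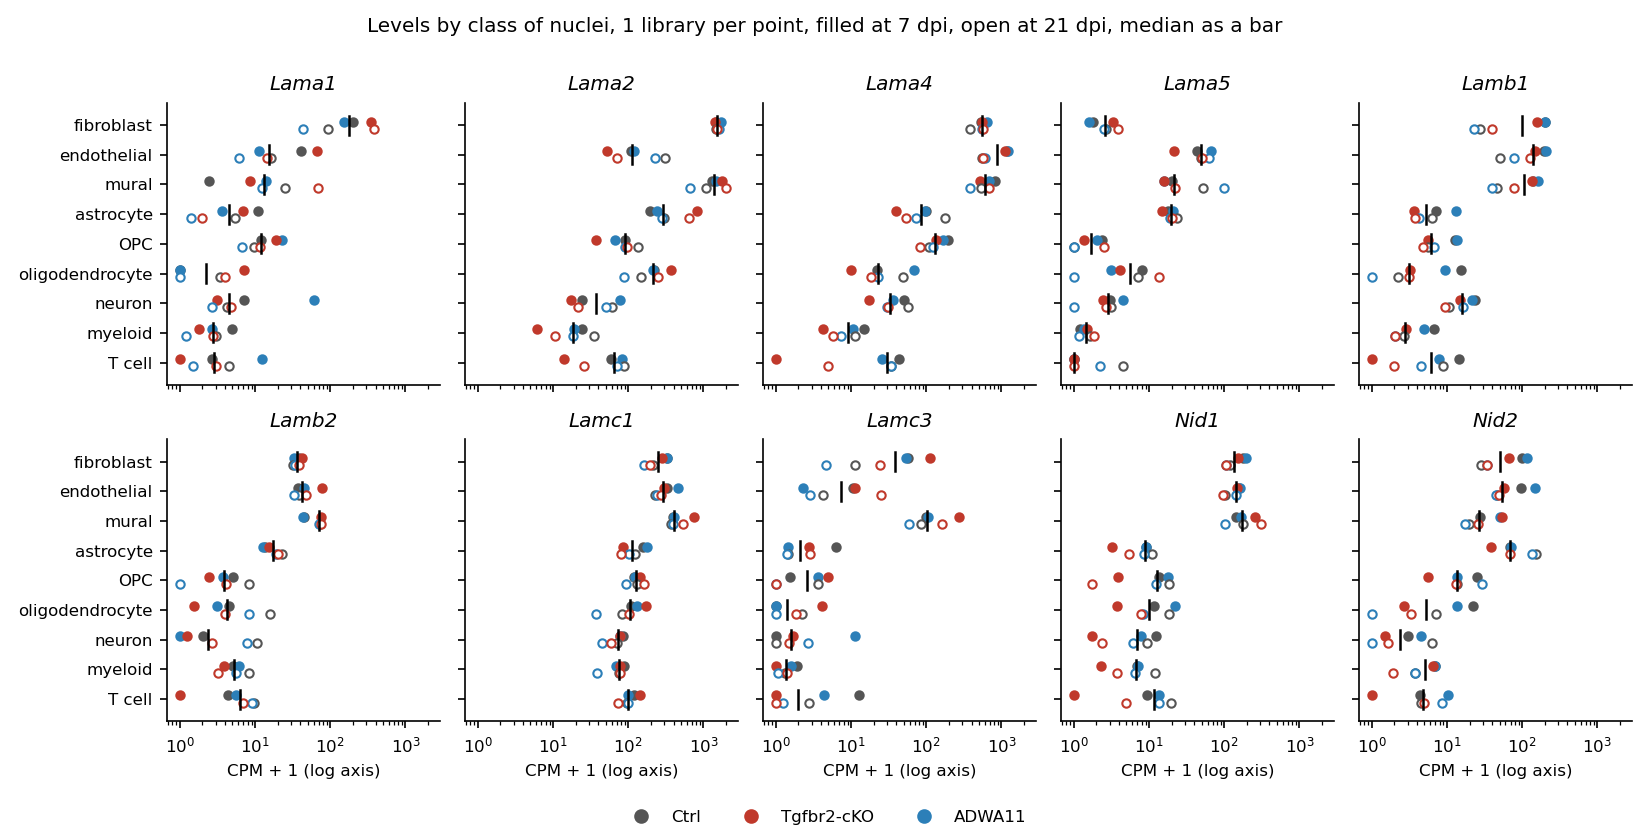
Level of each member by class on a log axis of CPM + 1, with 1 point for each library with at least 20 nuclei of the class and a bar at the median. Lama5 is low in fibroblasts (0.613 to 2.84 CPM) and in precursors (0 to 1.53 CPM), and Lamc3 is higher in mural nuclei (57.8 to 276 CPM) than in fibroblasts.

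The share of a member's UMIs that fibroblasts held differed between members and libraries. Fibroblasts held 92.2 to 96.7% of Lama1 UMIs in 5 libraries and 73.4% in Tgfbr2-cKO at 7 dpi, where neurons held 17.6%. For Lama2 it was 90.7 to 93.6% in Ctrl and ADWA11, and 40.8 and 66.1% in Tgfbr2-cKO at 7 and 21 dpi, where astrocytes held 20.9 and 21.9%. Nid2 in astrocytes made up 42.8% of its UMIs in Ctrl and 54.8% in Tgfbr2-cKO at 21 dpi.

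Over all nuclei of a library the levels gave another picture from the class. Lama1 was 75.4 CPM in Ctrl and 9.98 CPM in Tgfbr2-cKO at 7 dpi over the whole library, a ratio of −2.92, against 0.80 within fibroblasts. Nid1 was 75.7 and 4.63 CPM (−4.03), against −0.23 within fibroblasts. At 21 dpi the whole-library ratio of Lama1 in Tgfbr2-cKO was 0.35, against 2.06 within fibroblasts. The share of nuclei that were fibroblasts was 29.9% in Ctrl against 4.52% in Tgfbr2-cKO at 7 dpi, and 52.6% against 18.0% at 21 dpi. In Tgfbr2-cKO at 7 dpi neurons held 99914297 of 120379052 non-mitochondrial UMIs, against 975209 of 55090401 in Ctrl. In such whole-library sums, fewer cells of a type, less RNA per cell and more UMIs of other classes cannot be told apart.

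Endothelial nuclei, 1845 in all, had UMIs of every member, and Lama4 was the highest member in each library. Lama4 measured 1173 (Ctrl), 1121 (Tgfbr2-cKO) and 1232 CPM (ADWA11) at 7 dpi and 554, 571 and 608 CPM at 21 dpi, so the days did not overlap between libraries. By mouse they did, since in Tgfbr2-cKO at 7 dpi it was 375 CPM in 15 female and 1467 CPM in 16 male nuclei. Lamb1 was 194, 147 and 205 CPM at 7 dpi and 50.3, 126 and 77.8 CPM at 21 dpi. Its ratio at 21 dpi was 1.32 [0.93, 1.71] in Tgfbr2-cKO and 0.63 [0.31, 0.94] with ADWA11. Nid2 was 95.1, 55.8 and 148 CPM at 7 dpi and 44.7, 48.9 and 43.3 CPM at 21 dpi, and all 3 libraries of the later day were below those of the earlier. By mouse these days overlapped too, with 15.6 CPM (1 UMI, female) and 76.1 CPM (male) in Tgfbr2-cKO at 7 dpi and 78.3 CPM in its female nuclei at 21 dpi.

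Lama5 was 42.5, 20.3 and 65.2 CPM at 7 dpi and 48.5, 48.9 and 62.6 CPM at 21 dpi in endothelial nuclei. With ADWA11 it was above Ctrl at both times, by 0.62 [0.18, 1.06] and 0.37 [0.03, 0.70], under 2-fold. The value in Tgfbr2-cKO at 7 dpi was 4 UMIs in 38 nuclei, with a ratio to Ctrl of −1.07 [−2.98, 0.35]. Lamc1 was 324, 299 and 457 CPM at 7 dpi and 225, 274 and 240.3 CPM at 21 dpi, with a ratio of 0.50 [0.34, 0.66] with ADWA11 at 7 dpi.

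Lama2 in endothelial nuclei was 107, 50.7 and 118 CPM at 7 dpi and 303, 69.7 and 229 CPM at 21 dpi. In the nuclei assigned to a mouse, ADWA11 at 7 dpi was below Ctrl, with 25.4 and 39.4 CPM (female and male) against 75.5 and 75.2 CPM, and the ratio of 0.14 turned negative in 6 of 8 alternatives (−0.72 without called doublets), so no direction is read there. The 7 fibroblast markers summed in the same nuclei to 1365, 254 and 1006 CPM at 7 dpi and 2818, 314 and 2056 CPM at 21 dpi, in an order over the 6 libraries much like that of Lama2. Their part in the endothelial values of the members, Lama2, Lama1 and Lamc3 among them, was not tested. Lama2 was lower in Tgfbr2-cKO by −1.07 [−2.16, −0.16] at 7 dpi, though at 0.38 among male nuclei on 9 UMIs, and by −2.12 [−2.57, −1.70] at 21 dpi. It was higher at 21 than at 7 dpi in Ctrl (1.503 [1.28, 1.73]). Lama1 with ADWA11 was at −1.96 [−2.84, −1.17] at 7 dpi, on 16 against 75 UMIs, and −1.61 [−2.70, −0.66] at 21 dpi, on 11 against 52 UMIs. Between the days in Ctrl it was at −1.36 [−1.90, −0.83], but at 0.03 among female nuclei. Lamc3 rested on 2 to 18 UMIs a library. It was 9.56 CPM in Ctrl and 1.28 CPM with ADWA11 at 7 dpi (−2.90 [−6.05, −0.84], and −3.81 to −0.15 over 7 alternatives), and 3.28 CPM in Ctrl and 23.7 CPM in Tgfbr2-cKO at 21 dpi (2.86 [1.66, 4.11]).

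In endothelial nuclei all 10 members passed the filter, and 3 were past 2-fold in Tgfbr2-cKO at 7 dpi, Lamb2 higher and Lama2 and Lama5 lower, where 26.3% of all features were. At 21 dpi it was 3 of 10, Lamb1 and Lamc3 higher and Lama2 lower, against 15.2% of features. With ADWA11 it was 2 (Lama1 and Lamc3, lower) against 11.2% at 7 dpi and 1 (Lama1, lower) against 6.74% at 21 dpi. In Ctrl at 21 against 7 dpi it was 6, with Lama2 higher and Lama1, Lama4, Lamb1, Lamc3 and Nid2 lower, against 17.0% of features, of which 1643 were higher and 347 lower. The members' median in that comparison was −0.84 and that of all features was 0.12. TMM scaling shifted the endothelial ratios by −0.18 in Tgfbr2-cKO at 7 dpi and by −0.15 between the days in Ctrl, and by under 0.1 in the other 3. Lamb2 in Tgfbr2-cKO at 7 dpi was at 0.87 with TMM, under 2-fold, so none of the 10 was then past 2-fold and higher there, and at −1.27 among female nuclei.

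Mural nuclei (pericytes and smooth muscle, 531 in all) had UMIs of every member, and Lama2 was the highest member in each library. Lamc3 was 98.8, 276 and 104 CPM at 7 dpi and 84.1, 159 and 57.8 CPM at 21 dpi, and Tgfbr2-cKO was the highest library of each day, by 1.48 [0.86, 2.08] and 0.92 [0.36, 1.47] over Ctrl. Lamc1 had Tgfbr2-cKO highest too, with 395, 745 and 403 CPM at 7 dpi and 372, 526 and 395 CPM at 21 dpi. Lama2 was 1279, 1757 and 1486 CPM at 7 dpi and 1082, 1971 and 654 CPM at 21 dpi, and Nid1 was 145, 253 and 165 CPM at 7 dpi and 176, 306 and 102 CPM at 21 dpi. The mural markers in these nuclei ran from 5048 to 9025 CPM, highest in the 2 Tgfbr2-cKO libraries, and the fibroblast markers from 462 to 2910.2 CPM, lowest in those libraries. Their part was not tested. With ADWA11 at 21 dpi Lama2 was at −0.73 [−0.93, −0.53] and Nid1 at −0.79 [−1.32, −0.29], while Lama5 was at 0.96 [0.30, 1.62]. The mice differed for Lama5, with 43.0 CPM in Ctrl and 159 CPM with ADWA11 among female nuclei and 65.3 and 52.7 CPM among male nuclei. Lamb1 was lower in Ctrl at 21 than at 7 dpi here too (139 and 44.7 CPM, −1.63 [−2.24, −1.05]). The TMM shift was −0.20 for Tgfbr2-cKO at 7 dpi.

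The class named from astrocyte markers held unlike nuclei in different libraries. Its astrocyte markers summed to 3243, 10756 and 2948 CPM at 7 dpi and 5153, 9812 and 4112 CPM at 21 dpi, and its oligodendrocyte precursor markers to 6542, 1031 and 4966 CPM and 2163, 815 and 1887 CPM. In Ctrl and ADWA11 at 7 dpi the sum of the precursor markers thus exceeded that of the astrocyte markers. Single markers went the other way, with Aqp4 at 674 and 686 CPM and the precursor marker Pdgfra at 65.2 and 33.5 CPM. The markers do not settle the name for those 2 libraries, and the values at 7 dpi are given without a comparison. Lama2 was the main member of the class, at 195, 822 and 240.0 CPM at 7 dpi and 298, 634 and 277 CPM at 21 dpi. At 21 dpi Tgfbr2-cKO was the highest library, by 1.09 [1.01, 1.17] over Ctrl. Lama4 measured 97.4, 38.8 and 96.5 CPM at 7 dpi and 177, 53.2 and 73.1 CPM at 21 dpi, so that Tgfbr2-cKO was lowest at 21 dpi. Its ratio there was −1.73 [−1.90, −1.57], and that of ADWA11 was −1.27 [−1.51, −1.05]. Nid2 was 67.9, 37.0 and 69.3 CPM at 7 dpi and 149.99, 68.3 and 132 CPM at 21 dpi. Its fibroblast markers were 451, 88.8 and 322 CPM at 7 dpi and 859, 79.7 and 719 CPM at 21 dpi. The part of these marker differences in Lama2 and Lama4 was not tested. TMM scaling shifted the ADWA11 ratio at 21 dpi by −0.10.

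Oligodendrocyte precursors had Lama4 at 196, 135 and 166 CPM at 7 dpi and 107, 81.0 and 124 CPM at 21 dpi, and Lamc1 between 93.0 and 159 CPM. Lama2 was 90.3, 36.1 and 66.5 CPM at 7 dpi, with Tgfbr2-cKO lowest (−1.32 [−1.66, −0.996]), and 135, 94.7 and 90.1 CPM at 21 dpi, where the Tgfbr2-cKO ratio turned among male nuclei (2.21). Of the fibroblast markers, Col1a2 was 337, 15.0 and 134 CPM in these nuclei at 7 dpi and 412, 35.9 and 200 CPM at 21 dpi, lowest in Tgfbr2-cKO on each day, whereas Pdgfra, which precursors use themselves, was 396 and 417 CPM in Tgfbr2-cKO and 225 to 397 CPM in the other 4 libraries. Of the astrocyte markers, Gfap was 167, 21.1 and 16.5 CPM in these nuclei at 7 dpi and Aqp4 was 20.8, 16.8 and 7.74 CPM. The part of these marker differences in Lama2 was not tested. Lama1 was 11.1 CPM in Ctrl and 22.0 CPM with ADWA11 at 7 dpi (0.99 [0.50, 1.51]).

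In oligodendrocytes Lama2 was 216, 371 and 211 CPM at 7 dpi and 148, 247 and 88.1 CPM at 21 dpi, with Tgfbr2-cKO highest on each day, by 0.78 [0.41, 1.17] and 0.74 [0.47, 1.02] over Ctrl. Lama4 was lower there in Tgfbr2-cKO at 21 dpi (48.1 and 17.7 CPM, −1.45 [−2.01, −0.86]), but among male nuclei the ratio was 1.62. The fibroblast markers summed to 68.4 and 71.1 CPM in the oligodendrocytes of Tgfbr2-cKO and to 531 to 1294 CPM in the other 4 libraries, and their part was not tested.

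The 2 mice of a library were set apart by sex-linked RNA, and female nuclei are given before male nuclei. Lama1 in fibroblasts of Tgfbr2-cKO at 21 dpi was 519 and 273 CPM, and both mice were above both mice of Ctrl (103 and 74.4 CPM) and of ADWA11 (46.3 and 37.3 CPM). At 7 dpi the 2 mice of Tgfbr2-cKO had 369 CPM each, again above Ctrl (198 and 208 CPM). Lamb1 was 221 and 192 CPM in Ctrl at 7 dpi and 27.6 and 25.3 CPM at 21 dpi. For Lama4 at 21 dpi, both mice of Tgfbr2-cKO (507 and 665 CPM) and of ADWA11 (519.8 and 594 CPM) were above both of Ctrl (356 and 434 CPM). Of the 9 members tested, both mice of one library lay beyond both of the other for 8 between the days in Ctrl, where 74.2% of all features did. In Tgfbr2-cKO it was 5 at 7 dpi (51.6% of features) and 7 at 21 dpi (61.5%), and with ADWA11 it was 5 (62.2%) and 8 (53.9%), so such separation was common among all features. The 2 mice of a library were pooled, so they are not replicates.

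**Figure D5:**
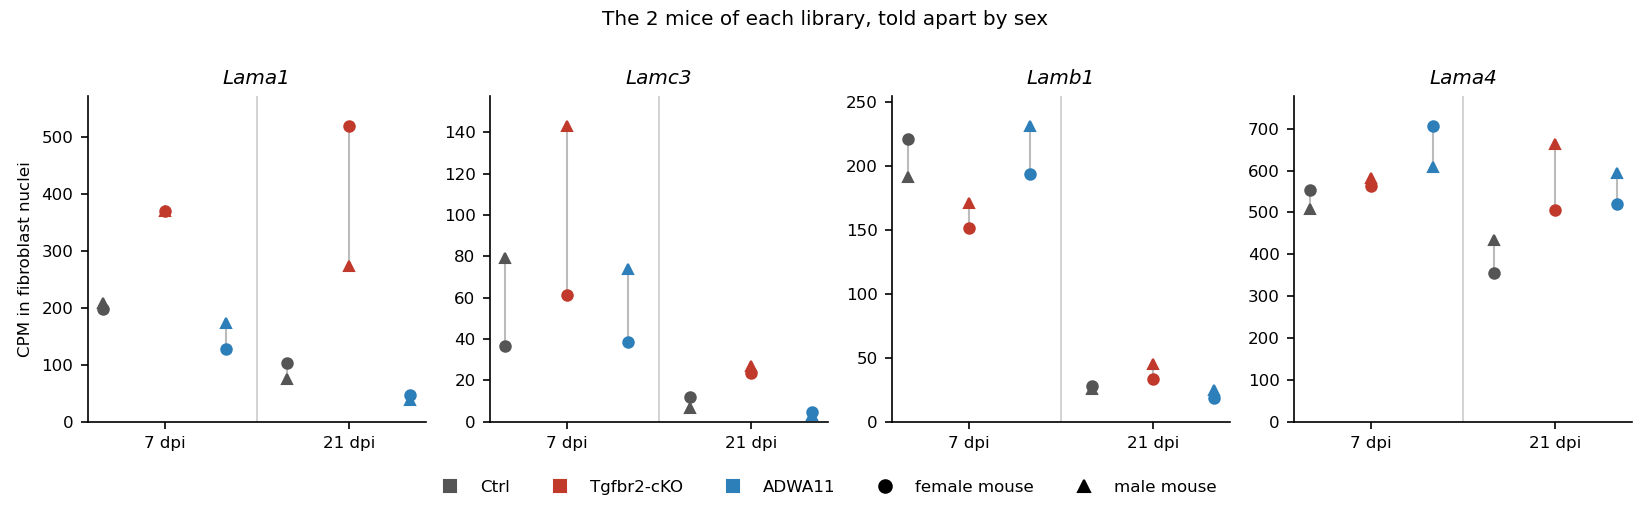
CPM of Lama1, Lamc3, Lamb1 and Lama4 in fibroblast nuclei called female (circles) or male (triangles), by library (x axis). Each point stands for 1 mouse as far as the calls are right, and the 2 Tgfbr2-cKO mice at 21 dpi (519 and 273 CPM of Lama1) lie above all Ctrl and ADWA11 mice of that day.

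Lama3, an epithelial α chain that is not among the 10 members, passed the filter in fibroblasts. It was 45.2, 3.94 and 8.30 CPM at 7 dpi and 36.0, 6.66 and 14.3 CPM at 21 dpi. Ctrl was the highest library of each day, and the ratio to Ctrl was −3.52 and −2.43 in Tgfbr2-cKO and −2.45 and −1.33 with ADWA11 at 7 and 21 dpi. It thus was lower in fibroblasts of both blocked conditions, unlike Lama1. Of all features, 9.31 and 10.0% passed 2-fold in Tgfbr2-cKO and 4.97 and 4.10% with ADWA11 at the 2 times. The Lama3 level in Tgfbr2-cKO at 7 dpi was under 5 CPM, and the part of sub-cluster shares was not tested. Endothelial nuclei had more Lama3, at 127 to 370 CPM. Its ratio to Ctrl there was −1.28 and 0.17 in Tgfbr2-cKO and −0.37 and 0.32 with ADWA11 at 7 and 21 dpi.

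Of the 10 laminin receptors, 8 were tested in fibroblasts and none passed 2-fold at 7 dpi in either condition or between the days in Ctrl, where 4.97 to 10.7% of all features passed. At 21 dpi the integrin chain Itga1 was higher (1.03) and Itga2 lower (−1.39) in Tgfbr2-cKO, and Itga6, the chain of the main laminin-binding integrins, was lower with ADWA11 (−1.10), against 10.0 and 4.10% of features. With TMM scaling Itga1 was at 0.98, under 2-fold, and Itga6 with ADWA11 at 7 dpi went from −0.99 to −1.02. Of 15 basement membrane partners 12 were tested. Between the days in Ctrl 5 were lower and 1 higher, against 10.7% of features past 2-fold. The 5 were collagen IV chains Col4a1 (−1.26), Col4a2 (−1.22), Col4a5 (−1.02) and Col4a6 (−1.90) and Col18a1 (−2.25), the source of endostatin. Ntn4, a netrin that binds laminin, was the 1 that was higher (1.93). With ADWA11 at 21 dpi Col4a6 (−1.20) and Col15a1 (−1.35) were lower, against 4.10% of features, and none passed at 7 dpi. In Tgfbr2-cKO, where 9.31 and 10.0% of features passed at the 2 times, the calcium-binding Smoc1 and Smoc2 were lower at 7 dpi (−1.01 and −1.06) and 21 dpi (−1.04 and −1.40), and at 7 dpi Agrn (1.04) and Col15a1 (1.02) were higher, both under 2-fold with TMM scaling (0.85 and 0.83).

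Over 58 sums of a class in a library with at least 20 nuclei, the levels of some genes ran close to those of a member, by Pearson's r of log2(CPM + 1). The points share libraries and depth, so r is a description. For Lamb1 the nearest were Col4a2 and Col4a1 (r = 0.90 for both), and for Lamc3 they were Egflam (0.86), Heyl and Dlc1. For Lama1 the nearest was Slc6a13 (0.81), an arachnoid marker here, then Cemip and Aox3. Lama4 was nearest to Fbxl7 and Msrb3 (0.93 for both) and Nid1 to Uaca (0.94) and A4galt (0.93). Lama2 was nearest to Bicc1 (0.90), Lama5 to Crip2 (0.86), Lamb2 to Ehd2 (0.89), Lamc1 to Smtn (0.86) and Nid2 to Pard3b (0.88).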

How the data were processed

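Nuclei of dissected PT lesions were sorted on DAPI by the authors and captured with 10x 3′ chemistry. Per the file headers, the deposited counts are UMIs per gene and barcode from Cell Ranger 7.2.0, not normalised, and the submitters' processing notes also name 7.1.0. The genome was mm10. Intervals reflect the depth of 64798965 to 140310354 UMIs a library.

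Barcodes in the lowest and highest 2.5% of UMIs or genes, or the highest 2.5% of mitochondrial share, were left out, with the percentiles that the study's methods name. They were taken within each library here, which those methods do not state. SCTransform (sctransform 0.4.2 in Seurat 5.3.0 under R 4.3.3) was run on the counts, and its 3000 most variable genes, less the members and related lists, were used. Clustering used 30 components at a resolution of 0.5, and of 0.2 for fibroblasts. A cluster was named from 3 or more markers, each in at least 5% of its nuclei at 2 times the level of the other nuclei. A tie between classes was settled by a rule set after the clusters were seen, and a difference from the study's classes may come from rebuilt names. Doublets were called at 0.8% per 1000 barcodes, and no sub-cluster of fibroblasts was left out, since called doublets were a majority in none. Clusters of 2347, 1988 and 1238 nuclei with fewer raised markers, 1 of 689 nuclei led by bone genes and 1 of 188 with few UMIs stayed unnamed.

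UMIs were summed per class and library (Python 3.11.15, numpy 2.4.6, scipy 1.17.1, pandas 2.3.3), with exact Poisson intervals for levels and exact conditional binomial intervals for ratios. Features with a mean of at least 5 CPM over the 6 libraries were tested at 2-fold, and ratios needed 20 nuclei in both libraries. For mural and glial classes the text gives ratios where both libraries had 20 UMIs, a limit set after the values were seen. With 1 library per group no p-value was computed. TMM factors came from edgeR 4.0.16. UMIs were not split between overlapping or antisense genes beyond what Cell Ranger did. The calculation was tested on simulated data. All members were named, and related genes only past 2-fold in fibroblasts or by rank of r. The members and lists were chosen with earlier results of these data known. Alternatives were TMM scaling, the mean of CPM per nucleus, no filter on low values, female or male nuclei, no called doublets, log-normalised clustering, members kept in clustering, and nuclei or sub-clusters left out. Promoters and GENCODE M21 coordinates were read by script.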

Additional observations from a re-analysis of the deposited data

Results flagged for a closer look

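In fibroblast and endothelial nuclei, 6 member ratios to Ctrl differed in sign between days or between the mice of a library with both counting intervals clear of 0 and, for the mice, at least 20 nuclei in each value. None of these differences was tested, and other signs differed with an interval that held 0 or with fewer nuclei. In fibroblasts of Tgfbr2-cKO against Ctrl, Lamb1 was at 0.53 at 21 dpi and −0.36 at 7 dpi, and Nid2 was at 0.24 at 21 dpi and −0.57 at 7 dpi, on the log2 scale. The Lamb1 value at 21 dpi was 0.10 without the sub-cluster of 1 library, and the Nid2 value at 21 dpi was −0.17 among female nuclei and −0.12 with the mean of CPM per nucleus. With ADWA11 in fibroblasts, Nid1 was at −0.17 at 21 dpi and 0.13 at 7 dpi.

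Between the mice, Lama2 in fibroblasts of Tgfbr2-cKO at 21 dpi was at −0.07 among female and 0.13 among male nuclei. Lamb1 in fibroblasts with ADWA11 at 7 dpi was at −0.19 among female and 0.27 among male nuclei. Lama4 in endothelial nuclei with ADWA11 at 7 dpi was at 0.18 among female and −0.27 among male nuclei. Each of these values was under 2-fold.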

How the results depend on the processing

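No paired analysis was possible because each group was 1 library, and leaving out a replicate was not possible for the same reason. In fibroblasts, the members past 2-fold in Tgfbr2-cKO at 7 dpi went from 0 to 1 (Lamc3) with log-normalised clustering, and at 21 dpi from 2 to 1 among female nuclei. With ADWA11 at 21 dpi they went from 2 to 1 with the mean of CPM per nucleus and among male nuclei. In endothelial nuclei, the 3 in Tgfbr2-cKO at 7 dpi became 5 with the mean of CPM per nucleus and among female nuclei, 1 without called doublets, 2 with TMM scaling (Lamb2 at 0.87) and 6 without the 5 nuclei with most UMIs of the gene. The 2 with ADWA11 at 7 dpi became 1 among male nuclei and 1 without those 5 nuclei, and the 1 at 21 dpi became 2 with the mean per nucleus, among female nuclei and without called doublets. The 6 between days in Ctrl became 3 without those 5 nuclei. The cause was not tested.

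The sign of 5 ratios past 2-fold turned. Lama5 in fibroblasts of Tgfbr2-cKO at 7 dpi, which was under the filter of 5 CPM, went from 1.54 to −0.065 without the low-UMI sub-clusters and to −0.50 without the 5 nuclei. In endothelial nuclei of that library Lama2 was at 0.38 among male and Lamb2 at −1.27 among female nuclei, and Lama1 in Ctrl at 21 against 7 dpi at 0.0253 among female nuclei. Lama4 in oligodendrocytes of Tgfbr2-cKO at 21 dpi was at 1.62 among male nuclei. The alternatives without the sub-cluster of 1 library and with the cluster led by bone genes were chosen after seeing the data. Without a filter on low values, 13.0 to 23.4% of features passed 2-fold in fibroblasts and 14.5 to 32.7% in endothelial nuclei, and Lama5 then added 1 member in Tgfbr2-cKO at 7 dpi and 1 between days in Ctrl in fibroblasts. The 38 endothelial and 41 mural nuclei of Tgfbr2-cKO at 7 dpi limit those values.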

Other observations

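Lamc3 in fibroblasts was higher in male than in female nuclei in the 3 libraries at 7 dpi. Female and male levels were 36.5 and 79.0 CPM in Ctrl, 61.1 and 143 CPM in Tgfbr2-cKO, and 38.4 and 74.0 CPM with ADWA11. At 21 dpi they were 12.04 and 6.69 CPM, 23.4 and 27.1 CPM, and 4.54 and 3.26 CPM, so the order did not hold. Sub-cluster 5, which had most Lamc3, made up 16.7 and 21.1% of female and male fibroblasts in Ctrl, 22.2 and 30.7% in Tgfbr2-cKO and 11 and 17.5% with ADWA11 at 7 dpi. Lama1, which was concentrated in the same nuclei, was 198 and 208 CPM in Ctrl, 369 CPM each in Tgfbr2-cKO and 128 and 172 CPM with ADWA11. With 1 mouse of each sex in a library, sex and mouse cannot be told apart.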
